A study of Mus musculus with 6 samples.

Results

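The genes described here are 6 matrix metalloproteinases (MMPs), Mmp2, Mmp3, Mmp12, Mmp14, Mmp19 and Mmp24, and the 4 tissue inhibitors of metalloproteinases, Timp1, Timp2, Timp3 and Timp4. They were matched by symbol, and make up 10 of the 54752 genes counted. Their values come from RNA-seq of the whole right hippocampus of 6 wild-type (WT) C57BL/6 male mice, labelled 14 weeks old, with 1 library per mouse. The study's methods name the strain as C57BL/6 J. BCAS mice (bilateral carotid artery stenosis, n = 3) carried a microcoil of 0.16 mm inner diameter around the right common carotid artery and one of 0.18 mm around the left, which narrow the vessels and lower cerebral blood flow. Sham mice (n = 3) had the same operation without microcoils, and all mice were examined 3 weeks after surgery. The right hippocampus lies on the side of the narrower coil, so the values describe the more severely narrowed side only. The question addressed was how transcription in the hippocampus differs after chronic cerebral hypoperfusion.

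MMPs are zinc-dependent endopeptidases that cut collagens, laminins, proteoglycans and many cell surface proteins. Most are secreted as inactive proenzymes and are switched on when the propeptide is removed, while Mmp14 and Mmp24 are membrane-type enzymes that stay anchored to the cell surface. TIMPs bind the active site of MMPs and of several ADAM and ADAMTS proteases and block them, and Timp2 also takes part, together with Mmp14, in the activation of the Mmp2 proenzyme. In brain, these proteases are known for the turnover of basement membrane and perineuronal matrix and for loosening of the blood-brain barrier after ischemia. An mRNA level reports neither the protein nor its activity.

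Sham libraries held 34301711 to 35607098 counts and BCAS libraries 29652456 to 31892083. Levels below are CPM, the counts scaled to TMM-normalized library sizes, and 3 counts, taken as the limit of detection, correspond to 0.0875 to 0.0995 CPM. The quasi-likelihood test of edgeR was run over 18617 genes, with Benjamini-Hochberg adjustment over all of them. A DEG needed an adjusted P value below 0.05 together with a log2 fold change of more than 1 in either direction, and the errors of fold changes are standard errors (SE). These P values measure the spread between the mice of a group. Because whole tissue was sequenced, fewer cells of a type and less RNA per cell cannot be told apart. Mitochondrial genes took 6.90% to 6.99% of the counts of sham libraries and 6.03% to 6.56% of those of BCAS libraries.

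All 10 genes were kept by the filter on low counts. Mmp3 and Mmp12 had 0 to 2 counts in sham libraries and were kept only through the BCAS libraries, where they were high. 5 of the 10 genes were DEGs, all higher in BCAS mice (Mmp2, Mmp3, Mmp12, Mmp19 and Timp1), beside 8.47% of all tested genes that were DEGs in this direction and 0.999% in the other. The 10 genes were chosen with earlier results of these data known. Mmp3 and Mmp12 also entered the test through the group where they were high, so the counts in this paragraph are a description. By adjusted P value alone 9 of 10 differed, beside 31.3% of all tested genes. Of these, 8 were higher in BCAS mice, beside 18.0% of tested genes, and Mmp24 was lower, beside 13.2%. The value of every BCAS mouse lay outside the range of the sham mice for all 10 genes, as it did for 48.0% of all tested genes. The median log2 fold change was 1.96 over the 6 MMPs and 0.74 over the 4 TIMPs, beside 0.02 over all tested genes. These medians include Mmp3 and Mmp12, whose fitted changes depend on sham counts near 0, and the median of the MMPs is the same with both genes at the lower bounds given below.

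**Figure D1:**
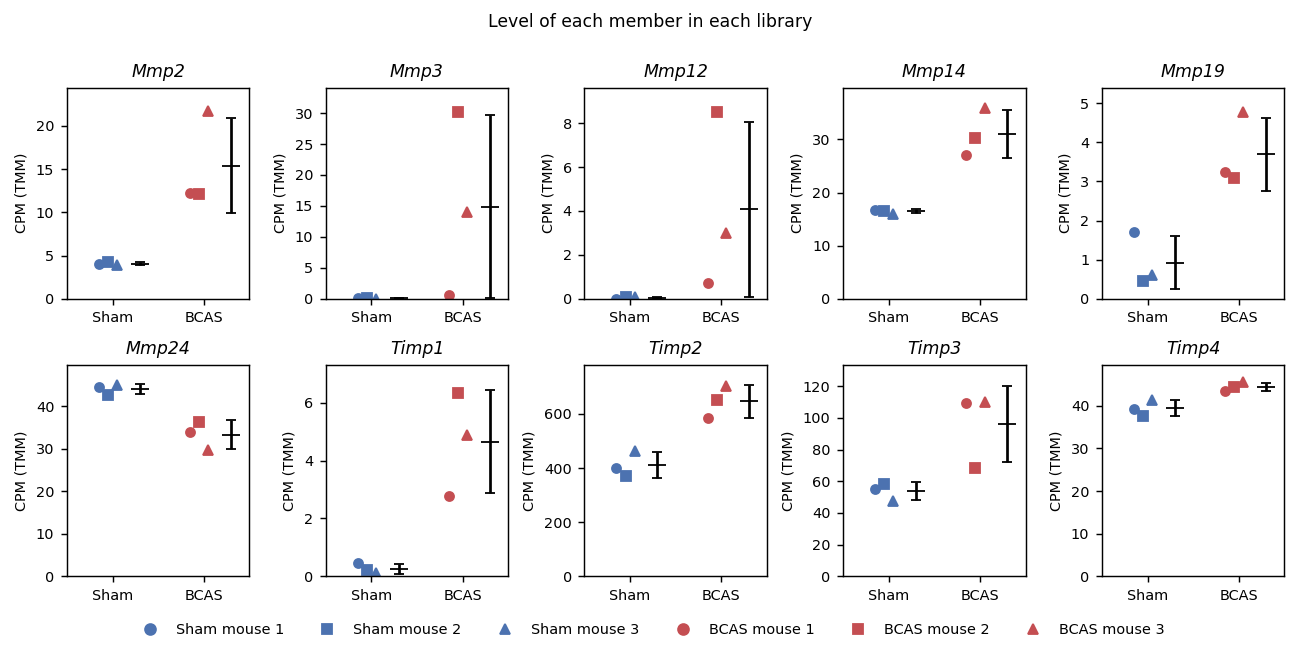
Level of each of the 10 genes in each library, in CPM on a linear axis from 0 that differs between panels, with 1 point per mouse and the mean ± SD of each group (n = 3) beside the points. The groups were apart in every panel, BCAS mouse 1 was the lowest BCAS mouse for Mmp3, Mmp12, Mmp14, Timp1, Timp2 and Timp4, and Mmp24 was the only gene lower in BCAS mice.

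Mmp3 and Mmp12 showed the largest rises, from almost no counts in sham mice. Mmp3 (stromelysin-1), which cuts proteoglycans, laminin and fibronectin and can activate other MMP proenzymes, lies at chr9:7445822-7455975 on the plus strand (mm10). Mmp12 (macrophage metalloelastase), an elastin-degrading enzyme best known from macrophages, lies at chr9:7344381-7369499 on the same strand. Stretches of 120 bases just upstream of the transcription starts in RefSeq (build GRCm38.p6, the same assembly as mm10) are shown because Mmp3 and Mmp12 lie in the same gene cluster, with Mmp1b between them, and both rose. That of Timp1 is added as the inhibitor with the largest rise and that of Timp2 as the most abundant member. They are printed 5′ to 3′ on the strand of the gene, and capitals mark matches to AP-1 (TGANTCA), to PEA3 (AGGAAG, read as CTTCCT on the other strand) and to a TATA box, searched as TATAAA. They span chr9:7445702-7445821 for Mmp3, chr9:7347254-7347373 and chr9:7344277-7344396 for the 2 starts of Mmp12, chrX:20870046-20870165 for Timp1, all on the plus strand, and chr11:118355412-118355531 for Timp2 on the minus strand.
Mmp3: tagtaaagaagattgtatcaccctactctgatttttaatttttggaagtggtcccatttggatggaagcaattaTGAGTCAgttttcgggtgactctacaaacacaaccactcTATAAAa
Mmp12 (start at 7347374): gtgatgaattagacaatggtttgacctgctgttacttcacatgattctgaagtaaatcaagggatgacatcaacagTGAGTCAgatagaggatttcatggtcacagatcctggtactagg
Mmp12 (start at 7344397): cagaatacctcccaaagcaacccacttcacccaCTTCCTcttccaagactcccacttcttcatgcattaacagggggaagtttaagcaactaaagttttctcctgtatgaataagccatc
Timp1: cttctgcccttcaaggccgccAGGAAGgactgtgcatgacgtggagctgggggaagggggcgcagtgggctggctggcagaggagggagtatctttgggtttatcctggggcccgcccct
Timp2: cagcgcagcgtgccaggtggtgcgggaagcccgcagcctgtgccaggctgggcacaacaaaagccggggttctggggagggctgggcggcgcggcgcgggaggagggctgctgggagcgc

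RefSeq promoter windows of 300 bases, 250 before and 50 after the start, were found for 8 of the 10 genes, with 2 windows for Mmp12 and none for Mmp2 and Mmp19. The Mmp3 window held the AP-1 match TGAGTCA 46 bases before the start and TATAAA 7 bases before it. The Mmp12 window of the start at 7347374 held the same TGAGTCA 44 bases before the start and TATAAA at base 5 after it. An AP-1 match stood in 7.81% of the 32851 windows of all genes, TATAAA on the gene's strand in 8.32%, and both in 0.995%. None of the other 7 windows of these genes held an AP-1 or TATA match. The Mmp12 window of the start at 7344397, which lies closest to the start of the counted gene, held only a PEA3 match, 87 bases before the start. A PEA3 match, found in 35.4% of all windows, stood in the windows of Mmp3, Mmp14, Timp3 and Timp4 as well, and 3 times in that of Timp1. Matches to an NF-kappaB motif (0.411% of all windows), a STAT motif (TTCNNNGAA, 8.30%) and an ISRE motif (3.44%) were found in no window of these genes. AP-1, PEA3, NF-kappaB, STAT and ISRE were searched on both strands. A match describes these letters and not binding. The G and C content of the 250 upstream bases was 37.6% for Mmp3 and 39.6% to 40.0% for the Mmp12 windows, against 54.4% for Timp1, 68.0% for Timp2 and 79.2% for Mmp24.

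The libraries of sham mice 1, 2 and 3 held 2, 2 and 0 counts of Mmp3. Those of BCAS mice 1, 2 and 3 held 17, 908 and 439 counts, or 0.523, 30.1 and 14.1 CPM. Every BCAS library was above the limit of detection and every sham library below it, with BCAS mouse 1 far under the other BCAS mice. Mmp3 was at least 168-fold higher in BCAS mice, taking each sham library at 3 counts, and at least 82.4-fold higher without BCAS mouse 2. For single BCAS mice against the same limit, the fold was at least 5.91, 340 and 159. The fitted log2 fold change was 8.43 (SE 1.596, adjusted P value 0.00472, edgeR), and its size depends on how the near-zero sham counts are handled. With limma-voom it was 7.09 with an adjusted P value of 0.210, so that Mmp3 was not called there, and over all alternatives the adjusted P value ran from 6.80e-08 to 0.210.

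Mmp12 had 0, 2 and 2 counts in sham mice 1, 2 and 3. In BCAS mice 1, 2 and 3 it had 24, 256 and 93 counts, or 0.739, 8.49 and 2.98 CPM. The order of the BCAS mice was the same as for Mmp3, lowest in mouse 1 and highest in mouse 2. Mmp12 was at least 45.9-fold higher in BCAS mice, and at least 21.0-fold higher without BCAS mouse 2. Its fitted log2 fold change was 6.56 (SE 1.11, adjusted P value 0.00271, edgeR), and it was a DEG under every alternative tried.

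Both genes belong to a cluster of 10 MMP genes that spans 427.1 kb of chromosome 9, so the neighbours were counted as well. Mmp13 (collagenase-3), which cuts fibrillar collagen and lies next to Mmp12, was counted 2, 2 and 4 times in sham libraries and 7, 47 and 34 times in BCAS libraries 1 to 3. It was not kept by the filter on low counts, and was a DEG without sham mouse 2, sham mouse 3 or BCAS mouse 1, which changes what the filter keeps. With no filter its log2 fold change was 3.53 (SE 0.70, adjusted P value 3.86e-04, edgeR), and the BCAS mice again were lowest in mouse 1 and highest in mouse 2. Mmp27 had 0, 0 and 2 counts in sham mice and 0, 10 and 11 in BCAS mice, and Mmp8 (neutrophil collagenase) had 0, 0 and 12 and 0, 12 and 15. For these genes the groups overlapped. With no filter the fitted log2 fold change of Mmp27 was 3.30 (SE 1.43, adjusted P value 0.124, edgeR), which did not pass. Mmp27 was a DEG without BCAS mouse 1, which had 0 counts of it (adjusted P value 0.0298, edgeR), but not without sham mouse 1, 2 or 3 (0.130 to 0.248). Its sham counts lay below the limit of detection. The mean of the BCAS mice was 2.57 times that limit, but with BCAS mouse 1 at 0 no minimum size of a rise is established. Mmp1a, Mmp1b, Mmp7, Mmp10 and Mmp20 stayed at 2 counts or fewer in every library, so any difference in them was not detectable at this depth.

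**Figure D2:**
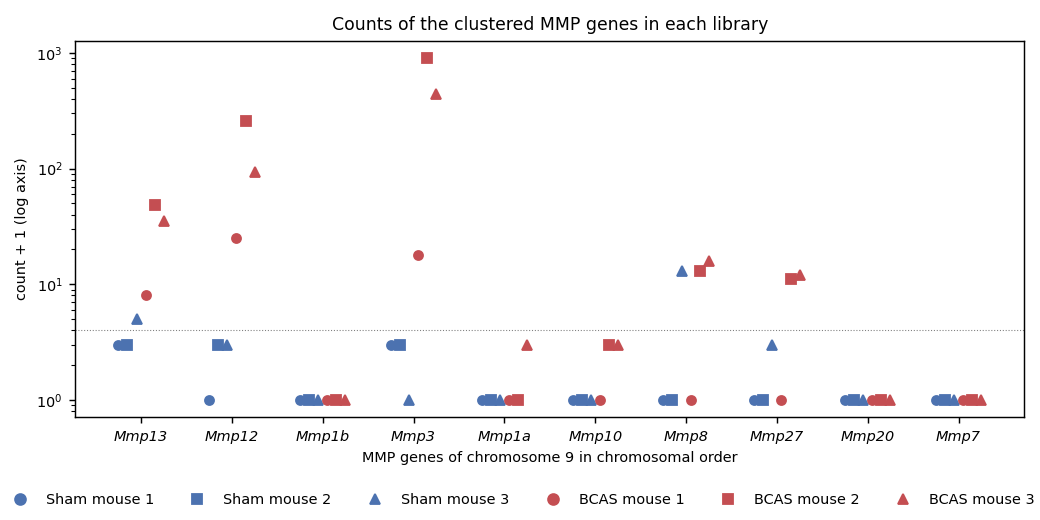
Counts of the 10 MMP genes of the chromosome 9 cluster in each library, in chromosomal order, plotted as count + 1 on a log axis, with 1 point per mouse and a dotted line at 3 counts. Mmp3, Mmp12 and Mmp13 were higher in all BCAS libraries than in all sham libraries, with BCAS mouse 1 the lowest of the BCAS mice each time, while Mmp1b, Mmp20 and Mmp7 had no counts.

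The secreted gelatinase Mmp2, which cuts type IV collagen and denatured collagens (chr8:92827291-92853420), rose from an even sham level. It measured 4.01, 4.22 and 3.91 CPM in sham mice and 12.2, 12.2 and 21.7 CPM in BCAS mice 1 to 3. The sham mice differed little among themselves, and BCAS mouse 3 stood above the other BCAS mice. The mean rose from 4.05 ± 0.159 to 15.4 ± 5.51 CPM (SD, n = 3), a log2 fold change of 1.92 (SE 0.24, adjusted P value 5.01e-04, edgeR), or 3.80-fold.

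Mmp14 (MT1-MMP), the membrane-type enzyme that processes the Mmp2 proenzyme at the cell surface, lies at chr14:54431612-54445364. Its levels were 16.8, 16.6 and 16.0 CPM in sham mice and 27.0, 30.2 and 35.8 CPM in BCAS mice. It rose in every BCAS mouse, from a mean of 16.5 ± 0.375 to 31.0 ± 4.48 CPM (SD, n = 3). The log2 fold change was 0.91 (SE 0.12, adjusted P value 6.99e-04, edgeR), which passed the test but stayed just short of the fold change required of a DEG. Without BCAS mouse 1 it was 1.00 (1.0031 before rounding), and Mmp14 counted as a DEG.

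Mmp19, a secreted enzyme that cuts basement membrane proteins (chr10:128790910-128800824), was low in both groups. It had 58, 15 and 21 counts in sham mice and 105, 93 and 149 in BCAS mice, or 1.71, 0.449 and 0.612 CPM and 3.23, 3.08 and 4.78 CPM. Sham mouse 1 stood above the other sham mice but below every BCAS mouse. The log2 fold change was 1.995 (SE 0.46, adjusted P value 0.0117, edgeR), 2.79 without sham mouse 1, and 1.77 with an adjusted P value of 0.0533 without sham mouse 3, where the call was lost. Of its 3533 exon bases, 789 also lie in exons of Tmem198b and 212 in exons of Gm47093, both on the opposite strand. Tmem198b moved in the same direction, with 154, 127 and 151 counts in sham libraries against 273, 242 and 312 in BCAS libraries and a log2 fold change of 1.05 (SE 0.16, adjusted P value 0.00158, edgeR). Its part in the rise of Mmp19 was not tested.

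Mmp24 (MT5-MMP), a membrane-type enzyme expressed mainly in neurons (chr2:155775342-155818366), was the only one of the 10 genes that fell. It measured 44.6, 42.8 and 44.9 CPM in sham mice and 34.0, 36.3 and 29.7 CPM in BCAS mice. Every BCAS mouse was below every sham mouse. The mean went from 44.1 ± 1.15 to 33.3 ± 3.33 CPM (SD, n = 3), and the log2 fold change was -0.40 (SE 0.09, adjusted P value 0.0114, edgeR), short of the DEG threshold. Mmp24 shares 637 of 4683 exon bases with BC029722 on the opposite strand, which changed by -0.17 (SE 0.09, adjusted P value 0.174). Neuronal markers were lower in BCAS mice as well, with 7 of 10 past the adjusted P value, beside 13.2% of tested genes in this direction. Their summed level ran from 5158 to 5580.0 CPM in the sham group and from 2762 to 3965 CPM in the BCAS group. The part of these markers in the fall of Mmp24 was not tested.

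**Figure D3:**
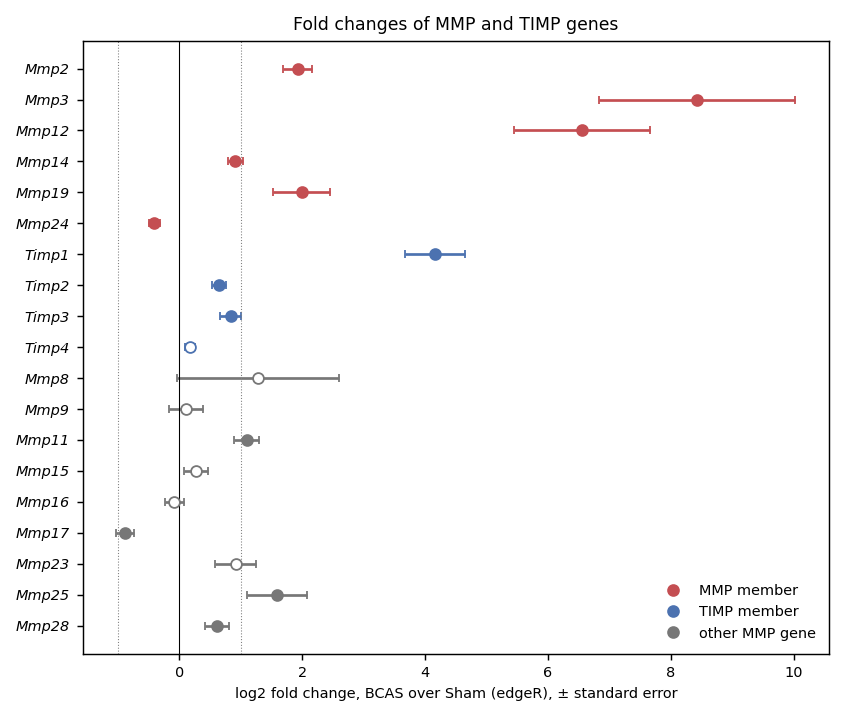
Log2 fold change of BCAS over sham (edgeR) ± SE for the 10 genes and for the 9 other MMP genes that were tested, with filled symbols for an adjusted P value under 0.05, open symbols for the rest and dotted lines at -1 and 1. Mmp3 and Mmp12 had the largest changes, Mmp3, Mmp8 and Mmp12 had the widest errors, Mmp24 and Mmp17 fell, and Timp4 was the only one of the 10 genes with an open symbol.

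Among the inhibitors, Timp1, the inducible and broadly acting TIMP, lies at chrX:20870166-20874735, inside Syn1. It had 15, 7 and 4 counts in sham mice, or 0.443, 0.210 and 0.117 CPM. In BCAS mice it had 90, 191 and 152 counts, or 2.77, 6.33 and 4.87 CPM. All BCAS mice were far above all sham mice, and BCAS mouse 1 was again the lowest of its group. The mean rose from 0.256 ± 0.168 to 4.66 ± 1.79 CPM (SD, n = 3), a log2 fold change of 4.16 (SE 0.48, adjusted P value 3.63e-04, edgeR), or 17.9-fold. Without sham mouse 1 the log2 fold change was 4.80.

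Timp2, the TIMP that binds Mmp14 and the Mmp2 proenzyme (chr11:118301069-118355740), was by far the most abundant inhibitor. It measured 401, 371 and 463 CPM in sham mice and 583, 653 and 702 CPM in BCAS mice. It rose in every BCAS mouse, from 412 ± 47.0 to 646 ± 59.7 CPM (SD, n = 3). The log2 fold change was 0.65 (SE 0.11, adjusted P value 0.00334, edgeR), below that required of a DEG.

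Timp3, which stays bound to the extracellular matrix and also inhibits Adam17 (chr10:86300372-86349506), measured 55.0, 58.4 and 47.7 CPM in sham mice. In BCAS mice it measured 109, 68.3 and 110.0 CPM. BCAS mouse 2 was much lower than the other BCAS mice but still above all sham mice. The log2 fold change was 0.84 (SE 0.17, adjusted P value 0.0070, edgeR), and 1.02 without BCAS mouse 2, where Timp3 counted as a DEG. Markers of the choroid plexus, an epithelium known to express Timp3, varied widely between libraries. The sum of 8 such markers, Ttr and Kl among them, was 1018, 4190 and 76.5 CPM in sham mice and 6093, 52.5 and 3315 CPM in BCAS mice, and none of the 8 passed the adjusted P value, with a median log2 fold change of 0.97 and all 8 above 0. In each group Timp3 was lowest in the mouse with the lowest choroid plexus sum, sham mouse 3 and BCAS mouse 2, and among sham mice it followed the order of that sum. The part of choroid plexus tissue in the rise of Timp3 was not tested.

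Timp4, a TIMP known for its expression in brain and heart (chr6:115241892-115252205), measured 39.3, 37.6 and 41.3 CPM in sham mice and 43.5, 44.4 and 45.5 CPM in BCAS mice. The groups did not overlap, but the log2 fold change of 0.17 (SE 0.08, adjusted P value 0.116, edgeR) did not pass the test. With library totals in place of TMM it was 0.25 with an adjusted P value of 0.0386. That scaling moved the median of all genes from 0.02 to 0.09, so relative to the other genes the change of Timp4 hardly moved.

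3 of the 4 TIMP genes lie inside synapsin genes on the opposite strand, Timp1 in Syn1, Timp3 in Syn3 and Timp4 in Syn2. Reads were counted without regard to strand, and reads on exons of 2 genes were not assigned. Timp1 shares 0 of its 888 exon bases with Syn1, Timp4 shares 90 of 5894 with Syn2, and Timp3 shares 1733 of 8144 with Syn3. The hosts did not move with the inhibitors. Syn1, a synaptic vesicle protein of neurons, fell from a mean of 582 to 415 CPM (log2 fold change -0.49, SE 0.16, adjusted P value 0.0467, edgeR). That call was lost on leaving out any mouse but BCAS mouse 2 (adjusted P value 0.0736 to 0.144). Syn2 changed by -0.51 (SE 0.18, adjusted P value 0.0541) and Syn3 by 0.02 (SE 0.30, adjusted P value 0.973), and neither passed the test. Syn2 passed on leaving out any 1 of the BCAS mice, with changes of -0.63 to -0.32 (adjusted P value 0.0269 to 0.0463). No exon of Mmp2, Mmp3 or Mmp14 overlapped an exon of another gene, and Mmp12 shared bases only with Mmp1b, which had 0 counts in all libraries.

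To compare the genes with each other, levels were expressed per kilobase of exon (RPKM, computed from the counts and the gene lengths). The lengths include exon bases shared with another gene, where reads were not assigned. Levels of Timp3 (1733 of 8144 bases shared), Mmp24 (637 of 4683) and Mmp19 (789 and 212 of 3533) can therefore read too low. Close ranks, such as those of Timp3 and Timp4, are not settled, and the sums and ratios below carry the same limit. In sham mice Timp2 led at 106 ± 12.1 RPKM (SD, n = 3), followed by Mmp24 at 9.41 ± 0.247. Timp4 at 6.69 and Timp3 at 6.60 overlapped in their ranges. Below them came Mmp14 at 2.76, Mmp2 at 1.20, then Timp1 at 0.289 and Mmp19 at 0.262, which overlapped. Mmp3 at 0.0220 and Mmp12 at 0.00544, both under the limit of detection, closed the order and could not be ranked. Per kilobase, Timp2 was thus the main inhibitor transcript of the sham hippocampus, and Mmp24 the main one of these 6 proteases.

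In BCAS mice Timp2 still led at 166 ± 15.3 RPKM, and the order below it was less clear. Timp3 at 11.8, Mmp3 at 8.27, Timp4 at 7.54, Mmp24 at 7.12, Timp1 at 5.25, Mmp14 at 5.20 and Mmp2 at 4.56 formed a run in which every gene overlapped the next. Mmp3 alone covered most of that run, from 0.291 RPKM in BCAS mouse 1 to 16.7 RPKM in BCAS mouse 2. Mmp19 at 1.05 and Mmp12 at 0.562 had the lowest means and overlapped each other, and their ranges also overlapped that of Mmp3.

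The summed level of the 6 MMPs was 14.0, 13.3 and 13.6 RPKM in sham mice and 16.7, 35.2 and 28.4 RPKM in BCAS mice 1 to 3. For these 6 genes the groups did not overlap, and the mean was 1.96 times as high in BCAS mice. The result depended on which genes were summed, since Mmp17, no member of the 6, was more abundant than all of them together in sham mice (35.4 to 40.1 RPKM) and fell to 24.7, 21.1 and 16.2 RPKM in BCAS mice 1 to 3. With Mmp17 the sum was 54.2, 52.2 and 49.0 RPKM in the sham group and 41.4, 56.3 and 44.6 RPKM in the BCAS group. These values overlapped, and the BCAS mean was 0.917 of the sham mean. Of the sum of the 6 MMPs, which leaves out Mmp17, Mmp24 made up 67.8% to 70.4% in sham mice but 43.4%, 22.0% and 22.4% in BCAS mice. Without both Mmp17 and Mmp24 the sum was 4.52, 4.20 and 4.03 RPKM in sham mice and 9.46, 27.4 and 22.0 RPKM in BCAS mice. The summed level of the 4 TIMPs was 117, 109 and 132 RPKM in sham mice and 174, 191 and 207 RPKM in BCAS mice, 1.596 times as high on average. Timp2 held 88.5% ± 1.45 of that sum in sham mice and 87.1% ± 0.846 in BCAS mice (SD, n = 3).

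The ratio of the 4 TIMPs to the 6 MMPs, as summed RPKM, was 8.33, 8.18 and 9.68 in sham mice and 10.4, 5.42 and 7.29 in BCAS mice. The groups overlapped, with BCAS mouse 1 above and BCAS mice 2 and 3 below every sham mouse. With Mmp17 in the denominator the ratio was 2.16, 2.09 and 2.69 for sham libraries, and 4.19, 3.38 and 4.64 for BCAS libraries, higher in every BCAS mouse. With all 23 MMP genes in it the ratio was again higher in every BCAS mouse, at 2.81 to 3.53 against 1.73 to 2.27. No test was run on these sums or on their ratio.

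**Figure D4:**
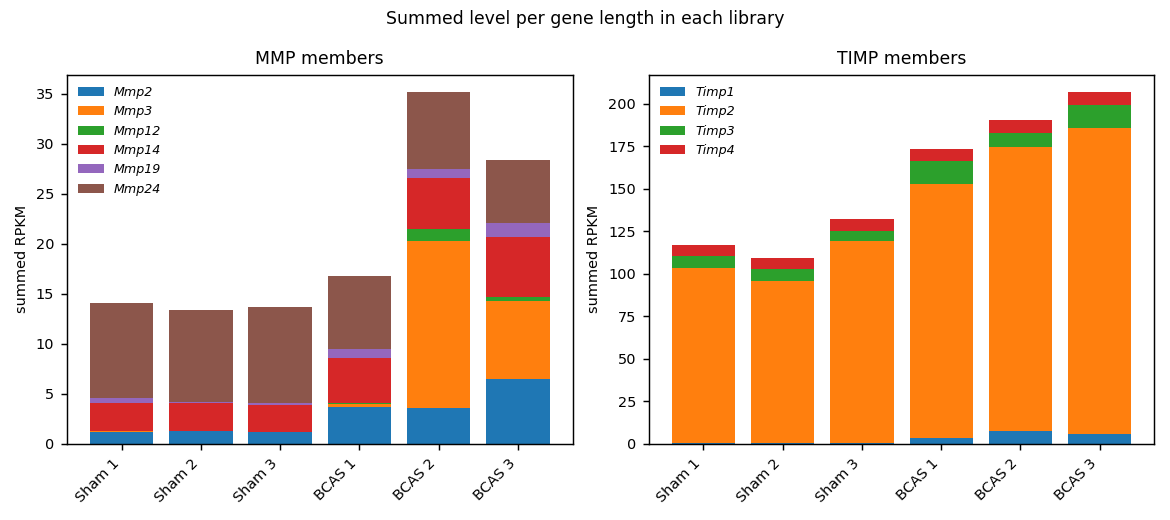
Summed RPKM of the 6 MMPs, without Mmp17 (left) and the 4 TIMPs (right) in each library, with each gene as a colored segment of a bar that starts at 0 and axes that differ between panels. Mmp24 filled most of the MMP bar in sham mice and Mmp3 was its largest segment in BCAS mice 2 and 3, while Timp2 filled 86.2% to 90.1% of every TIMP bar.

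Of the 17 other MMP genes, 9 passed the filter on low counts, 2 were DEGs, both higher in BCAS mice, and 5 did not pass the adjusted P value. Beside the counts of this and the following lists stand the shares over all tested genes. DEGs higher in BCAS mice were 8.47%, and 18.0% were higher and 13.2% lower by adjusted P value. Mmp11 (stromelysin-3), an MMP activated inside the cell by furin, measured 2.54, 3.38 and 2.19 CPM in sham mice and 5.72, 5.67 and 5.96 CPM in BCAS mice. It rose by a log2 fold change of 1.10 (SE 0.20, adjusted P value 0.00430, edgeR), and by 0.96, short of the threshold, without sham mouse 3. Mmp25, a membrane-anchored MMP known from leukocytes, rose by 1.59 (SE 0.49, adjusted P value 0.0363), a call that was lost without sham mouse 1, sham mouse 2, BCAS mouse 1 or BCAS mouse 3 (adjusted P value 0.0817 to 0.126).

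Mmp17 (MT4-MMP), another membrane-anchored MMP, was the most abundant MMP gene in sham mice per kilobase and fell like Mmp24. It measured 266, 257 and 234 CPM in sham mice and 164, 140 and 107 CPM in BCAS mice. Its log2 fold change was -0.88 (SE 0.14, adjusted P value 0.00202, edgeR). It counted as a DEG only without BCAS mouse 1, at -1.03. Mmp28 changed by 0.62 (SE 0.20, adjusted P value 0.0433), and was not called without sham mouse 1 or 3 or BCAS mouse 1 or 3 (0.0720 to 0.137). Mmp9 (gelatinase B), the MMP most often named with blood-brain barrier injury, measured 1.62, 2.04 and 2.77 CPM in sham mice and 1.82, 2.59 and 2.56 CPM in BCAS mice. The groups overlapped, and its log2 fold change was 0.11 (SE 0.28, adjusted P value 0.790). Mmp8, Mmp15, Mmp16 and Mmp23 had fitted changes of 1.28, 0.28, -0.08 and 0.92 and did not pass. Mmp15 passed only without BCAS mouse 2 (0.45, adjusted P value 0.04999). Without sham mouse 3, Mmp23 was a DEG at 1.29 (adjusted P value 0.0295), while Mmp8 did not pass (adjusted P value 0.118). No size is given for Mmp8 in that fit, because the remaining sham libraries held 0 counts of it. Mmp21 stayed below the filter at 1 to 7 counts.

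Among genes that switch MMPs on or hold them in check, 15 of 17 were tested, 7 were DEGs, all higher in BCAS mice, and by adjusted P value 10 were higher and 2 lower. The median log2 fold change was 0.66. The urokinase Plau, which turns plasminogen into plasmin, an activator of MMP proenzymes, rose from 2.83, 2.90 and 3.18 CPM in sham mice to 21.7, 23.1 and 29.4 CPM in BCAS mice. Its log2 fold change was 3.06 (SE 0.15, adjusted P value 1.16e-05, edgeR), while that of its receptor Plaur was 3.70. Serpine2, a serine protease inhibitor that also blocks urokinase, rose as well, by 1.22. So did A2m, a plasma protein that traps proteases, by 3.46, and Cd44, a hyaluronan receptor that docks MMPs at the cell surface, by 2.82.

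Lcn2 (lipocalin-2), which binds Mmp9, measured 0.177, 0.120 and 0.787 CPM in sham mice and 5.11, 26.0 and 24.8 CPM in BCAS mice. Its log2 fold change was 5.67 (SE 0.77, adjusted P value 8.96e-04, edgeR), or 6.93 without sham mouse 3, and it shared with Mmp3 and Mmp12 the low value in BCAS mouse 1. Plat, Furin and Lrp1, a clearance receptor for protease complexes, rose by 0.42, 0.37 and 0.66. The proteoglycans Spock1 and Spock3 (testicans) fell by 0.55 and 0.41 on the log2 scale. The calls of Plat (adjusted P value 0.0663 to 0.0785) and Spock1 (0.0732 to 0.103) were lost without any 1 of the sham mice. Spock2 (-0.31), Bsg (0.26), which induces MMPs, and Reck (0.04), a membrane-anchored MMP inhibitor, did not pass the test, but Spock2 passed without BCAS mouse 2 (-0.41, adjusted P value 0.0251). Reck measured 18.3, 18.7 and 21.6 CPM in sham mice and 23.7, 16.7 and 19.9 CPM in BCAS mice, with overlap. Plg and Serpinb2 were not tested for low counts.

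TIMPs also block several ADAM and ADAMTS proteases, and whether they block each one listed here was not examined. All 12 listed genes were tested, 3 were DEGs and 8 passed the adjusted P value, all of them higher in BCAS mice, with a median log2 fold change of 0.37. The count of 8 fell to 3 without BCAS mouse 3, to 4 without sham mouse 1 or sham mouse 3, and to 5 without sham mouse 2 or BCAS mouse 1, while that over all tested genes fell from 5819 to between 3782 and 4862 in these fits. Adam17, the sheddase of tumor necrosis factor and a target of Timp3, measured 18.0, 17.9 and 15.9 CPM in sham mice and 37.7, 41.7 and 58.3 CPM in BCAS mice, with a log2 fold change of 1.41 (SE 0.16, adjusted P value 3.22e-04, edgeR). Adam8, found on leukocytes and microglia, rose by 1.54 and the aggrecanase Adamts5 by 1.07, or by 0.90 to 0.96 without sham mouse 1, sham mouse 3 or BCAS mouse 3, where its call was lost, as it was with either replicate block. Adam10, the main sheddase of many neuronal membrane proteins and the highest of the list per kilobase of exon, rose by 0.37.

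Of 20 basement membrane and junction genes, whose proteins MMPs can cut or disturb, 4 were DEGs and 12 passed the adjusted P value, all higher in BCAS mice. The median log2 fold change was 0.65. The DEGs were the nidogens Nid1 (1.33) and Nid2 (1.18), the fibronectin gene Fn1 (1.18) and Sparc (1.44), which encodes a collagen-binding glycoprotein and is also known from microglia. The groups overlapped for Nid2, and its call was lost without sham mouse 1, sham mouse 3, BCAS mouse 1 or BCAS mouse 3 (adjusted P value 0.119 to 0.159), and also with DESeq2, with limma-voom and with either replicate block. Without BCAS mouse 2 the DEGs numbered 8, among them Lama1, Lama5, Lamb2 and Hspg2. Those genes, Nid1 and Nid2 were lowest in BCAS mouse 2 of the BCAS mice, as was the sum of choroid plexus markers. Fn1 and Sparc were lowest in BCAS mouse 1. Within each group Nid2 and Lama5 followed the order of that sum. The part of choroid plexus tissue in these changes was not tested. The collagen IV chain Col4a1, a substrate of Mmp2, rose by 0.63 (SE 0.08, adjusted P value 5.60e-04, edgeR), while its partner Col4a2 changed by 0.20 (adjusted P value 0.117). Among junction genes Tjp1 rose by 0.56 (adjusted P value 4.62e-04), whereas Cldn5 (0.32, adjusted P value 0.0670) and Ocln (0.31, adjusted P value 0.295) did not pass the test. Cldn5 passed without sham mouse 3 (0.47, adjusted P value 0.00595).

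Markers of several cell types differed between the groups as well. Beside the counts of markers stand 8.47% of all tested genes that were DEGs higher in BCAS mice and 18.0% that were higher by adjusted P value. All 10 microglial markers were DEGs, and their sum went from 374 to 390 CPM in sham mice to 2469, 2664 and 3983 CPM in BCAS mice 1 to 3, with mouse 3 highest, as for Mmp2. Border macrophage markers rose in 4 of 6 cases, with sums of 10.3 to 14.8 CPM against 25.7 to 33.5 CPM in BCAS libraries. Monocyte markers rose in 3 of 4 cases, with sums of 0.449 to 1.03 CPM against 5.54 to 11.1 CPM.

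Of 6 neutrophil markers only S100a9 was tested and it did not pass, and the defining marker Ly6g was at 0 in every library. The sum of the neutrophil list was 0.718 to 1.63 CPM in the sham group and 0.923 to 3.78 CPM in the BCAS group, and the groups overlapped. Meningeal fibroblast markers, in a cell type that expresses Mmp2 and Timp1, were DEGs in 5 of 8 cases, Col1a1 and Col3a1 among them. Their sum was 148, 105 and 210 CPM in sham mice and 232, 377 and 401 CPM in BCAS mice, with BCAS mouse 1 the lowest of its group, as for Mmp3, Mmp12 and Timp1. BCAS mouse 1 was also the lowest of its group for the microglial, border macrophage, monocyte and neutrophil sums.

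Astrocyte markers were DEGs in 3 of 8 cases, with sums of 4479 to 4759 CPM against 9554 to 10077 CPM in BCAS libraries. No endothelial marker of 8 was a DEG, although 5 passed the adjusted P value, and their sum was 281 to 307 CPM against 371 to 420.0 CPM. Of 8 mural cell markers 1 was a DEG, with sums of 291 to 359 CPM against 388 to 443 CPM. None of 6 oligodendrocyte markers passed the adjusted P value, and their sums of 5092 to 6256 CPM in sham libraries and 5840 to 8796 CPM in BCAS libraries overlapped. The part of any of these cell types in the changes of the MMP and TIMP genes was not tested.

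**Figure D5:**
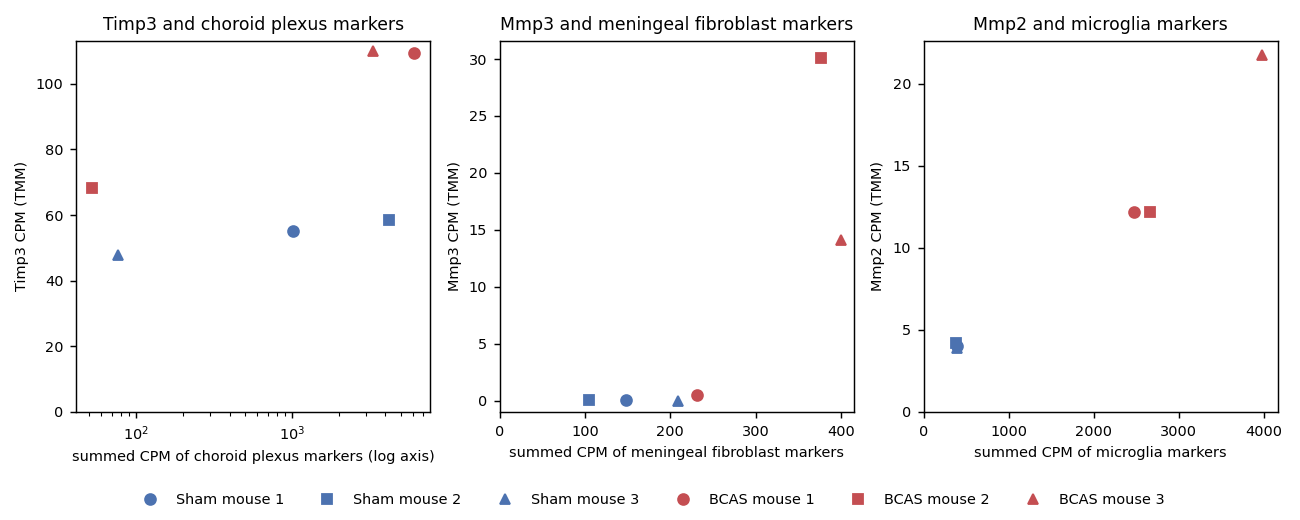
Timp3 against summed choroid plexus markers (log axis), Mmp3 against summed meningeal fibroblast markers and Mmp2 against summed microglial markers, all in CPM, with 1 point per mouse. Timp3 was higher in all BCAS mice across choroid plexus sums of 52.5 to 6093 CPM, while both other marker sums separated the groups in the same direction as the gene plotted.

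For each DEG among the 10 genes, the 3 most alike of 15621 other genes were taken by the Euclidean distance of log2 CPM centred on the sham mean over the 6 libraries, as a description. Nearest to Mmp2 were the protease gene Lgmn (distance 0.196), the microglial transcription factor Sall1 (0.207) and Ube2l6 (0.220). Mmp3 had no close neighbour, with Cd5l, a macrophage protein, nearest at 2.17, followed by Ifi204 at 3.45 and Lcn2 at 3.59. Cd5l was counted 31, 333 and 124 times in BCAS libraries 1 to 3 and not at all in sham libraries, in the order of Mmp3 and Mmp12.

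Nearest to Mmp12 were Atp6v0d2 (1.31), Lilr4b (1.67) and Siglec1 (1.89), a macrophage lectin. Nearest to Timp1 were Cd101 (0.985), St14 (0.988), a membrane serine protease, and the Toll-like receptor Tlr1 (1.01). Nearest to Mmp19 were Gm20707 (0.668), Ltb (0.704) and Clec10a (0.762), all low in sham mice with sham mouse 1 the highest, as Mmp19 itself. The 6 libraries share 1 contrast, so any gene that rose by a like amount is near.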

How the data were processed

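RNA-seq libraries of the right hippocampus of 3 sham and 3 BCAS mice were used, grouped and numbered by their titles. Inside the BCAS tables the columns of mice 1, 2 and 3 carry the numbers 2, 3 and 4, and mice are named by the titles. The authors trimmed the reads (150 bases, paired-end) with Trim Galore, aligned them to mm10 with HISAT2, sorted the alignments with SAMtools 1.9 and deposited raw counts per gene from featureCounts. The file headers name featureCounts 2.0.3 with GENCODE vM20, and the submitters' processing notes name version 1.6.3. Per the file headers each mate counted as a read, counting ignored strand, and multi-mapping reads were left out. The counts were neither normalized nor filtered. Identifiers were matched to symbols for 54723 of 54752 genes.

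The main test was edgeR's quasi-likelihood fit, after its filterByExpr filter and TMM normalization, with no block (R 4.3.3, edgeR 4.0.16). The study's methods name DESeq2, which was an alternative here (1.42.0), with limma-voom (limma 3.58.1), RLE normalization, library totals, other filters, adjusted P value alone, a replicate block and leaving out each mouse. A block by the numbers inside the tables, and sums with Mmp17 or all other MMP genes, were added after seeing the data. The common biological coefficient of variation was 0.161. TMM factors were 0.964 to 0.984 in sham and 1.01 to 1.05 in BCAS libraries. Limits of 3 counts cover counting error only. Steps were tested on simulated data.

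The 10 members, the gene lists and the tests were chosen with earlier results of these data known. Named genes were all members, all other MMP genes, DEGs of each pathway list with up to 5 further genes, and for each member that was a DEG with a mean of at least 1 CPM its 3 nearest genes. Reck, Plat, Furin, Spock3, Col4a2, Cldn5, Ocln and Tjp1, and some but not all genes whose call changed without a mouse, were named after their values were seen. Promoter windows came from RefSeq (GRCm38.p6). Blood flow, histology, qRT-PCR and single-cell data were not analysed here. A gene of the activation and restraint list is counted there but not reported here by name.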

Additional observations from a re-analysis of the deposited data

How the results depend on the processing

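The 10 log2 fold changes were recomputed under 14 alternatives each, and none changed direction. In 137 of these 140 cases the call by adjusted P value was the same. Mmp3 lost it with limma-voom (7.09), Mmp19 without sham mouse 3, and Timp4 gained it with library totals (0.25). For Mmp3 and Mmp19 the cause was not tested. For Timp4, library totals moved the median of all genes as well, from 0.02 to 0.09. Leaving out each mouse, the log2 fold change of Mmp19 ran from 1.67 to 2.79, the DEGs among the other MMP genes from 1 to 4, and those among basement membrane and junction genes from 3 to 8.

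By adjusted P value alone, without a fold change threshold, the calls were 5819 over all genes in place of 1762 and 9 in place of 5 among the 10 genes. They were 4 in place of 2 for other MMP genes, 12 in place of 7 for activation and restraint, 8 in place of 3 for ADAM and ADAMTS genes, 12 in place of 4 for basement membrane and junction genes, and 1 in place of 0 for the synapsin genes.

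By the numbers in the titles, residual correlations of equal numbers were 0.036, -0.314 and -0.158. Sham mice 1, 2 and 3 correlated best with BCAS mice 1, 1 and 2. With 3 mice per group, these values show no pairing and cannot exclude one. The numbers inside the BCAS tables are 2, 3 and 4. By these numbers only 2 pairs exist, sham mouse 2 with BCAS mouse 1 (0.223) and sham mouse 3 with BCAS mouse 2 (0.347), too few to show a pairing. The mean summed RPKM of the 6 MMPs was 1.96 times as high in BCAS as in sham mice, but 0.917 times with Mmp17 added and 0.987 times with all other MMP genes added, sums chosen after seeing the data; Mmp17 fell. With the replicate block by title 1595 genes were DEGs in place of 1762, and all calls of the 10 genes were the same. With a replicate block by the numbers inside the tables, chosen after seeing the data, 1327 genes were DEGs, all calls of the 10 genes were again the same, and the DEGs were 1 among other MMP genes (Mmp11) and 2 among basement membrane and junction genes (Fn1 and Sparc). With 3 mice per group and sham counts near 0, the sizes of the changes of Mmp3 and Mmp12 are known only as lower bounds.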
